A study of Mus musculus with 1152 samples.

Results

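The mechanosensing genes examined here were the channel genes Piezo1, Piezo2 and Trpv4, the transcriptional coactivator genes Yap1 and Wwtr1, and the YAP/TAZ target genes Cyr61, Ctgf and Ankrd1. They were chosen by name, and all 8 were present among the 23168 genes of the deposited table. Their values were read over all cells analysed, 56.9% of the cells labelled, which were lymphatic endothelial cells (LECs) of the nasopharyngeal lymphatic plexus from aged C57BL/6 mice. The cells had been gated on CD31 and PDPN, sorted singly into wells and sequenced by Smart-seq3, a full-length plate method. They carried no treatment or transgene by the labels, no label tied a cell to an animal, and cells of other ages were not analysed here. The cells were therefore 1 pooled sample without replicates. No test between groups could be made, and intervals below are exact (Clopper-Pearson) 95% binomial intervals that cover counting error only.

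Lymphatic endothelium is exposed to stretch and to the shear of moving lymph. PIEZO1 and PIEZO2 are cation channels opened by membrane tension, and TRPV4 is a calcium-permeable channel that responds to osmotic, thermal and mechanical stimuli. PIEZO1 is known for its role in the formation and upkeep of lymphatic valves. YAP, encoded by Yap1, and TAZ, encoded by Wwtr1, are held in the cytoplasm when LATS kinases of the Hippo pathway phosphorylate them. When the cytoskeleton is under tension they enter the nucleus and bind TEAD factors at target genes such as Cyr61, Ctgf and Ankrd1. Cyr61 and Ctgf encode secreted matricellular proteins, also called CCN1 and CCN2, and Ankrd1 encodes an ankyrin-repeat protein of muscle and stretched cells. Cyr61 is also an immediate-early gene, a class that is switched on within minutes by serum, stress or tissue dissociation.

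Promoter sequences are shown for Cyr61, whose values moved with immediate-early genes in the cells, for Fos, the gene most like it, and for Crim1, a YAP/TAZ target gene that was the gene most like Ctgf. Each is the 250 bases before the RefSeq start on GRCm38.p6, 5′ to 3′ on the gene's strand. Capitals mark matches on either strand to GGAATG, the core of the TEAD motif, or to TGACG, which forms part of the cyclic AMP response element TGACGTCA.
Cyr61 promoter, chr3:145649986-145650235, minus strand: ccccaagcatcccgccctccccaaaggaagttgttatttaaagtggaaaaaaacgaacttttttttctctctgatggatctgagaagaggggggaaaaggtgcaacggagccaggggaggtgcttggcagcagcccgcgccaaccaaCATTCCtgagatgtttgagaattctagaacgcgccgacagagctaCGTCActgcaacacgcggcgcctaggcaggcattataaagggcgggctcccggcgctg
Fos promoter, chr12:85473640-85473889, plus strand: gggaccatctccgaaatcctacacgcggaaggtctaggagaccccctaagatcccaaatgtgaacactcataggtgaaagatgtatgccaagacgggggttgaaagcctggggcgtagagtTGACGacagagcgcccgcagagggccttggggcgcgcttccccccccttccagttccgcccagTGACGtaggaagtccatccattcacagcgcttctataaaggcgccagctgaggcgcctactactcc
Crim1 promoter, chr17:78199998-78200247, plus strand: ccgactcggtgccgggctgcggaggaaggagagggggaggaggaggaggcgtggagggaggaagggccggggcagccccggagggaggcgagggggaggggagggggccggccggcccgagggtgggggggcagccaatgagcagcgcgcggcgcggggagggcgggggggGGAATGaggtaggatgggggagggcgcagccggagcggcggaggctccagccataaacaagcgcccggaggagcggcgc

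The Cyr61 window held a TEAD match upstream of a TGACG match that began 58 bases before the start. The Fos window held 2 TGACG matches, the nearer 66 bases before its start, and no TEAD match. The Crim1 window held a TEAD match 79 bases before its start. Other genes among those most like Cyr61 or Ctgf did not all share these matches. Of those most like Cyr61, Atf3 had 1 TGACG match, whereas Jun and Zfp36 had no TGACG and no TEAD match. Of those most like Ctgf, Robo4 and every Prss23 window had no TEAD match. Robo4 had no TGACG match either, whereas most Prss23 windows held TGACG matches, so these were not limited to genes like Cyr61. Among the members with a window, Yap1 had 1 TEAD match, Wwtr1 had 1 in each of its 2 windows, and Ankrd1 had 2 in its window. The Piezo1 and Trpv4 windows held none. Ctgf was not matched to a window, and windows on chromosome 18, where Piezo2 lies, are not reported here. TEAD matches occurred in 12.6% of all 32851 promoter windows of this length, and TGACG matches in 17.8%. The AP-1 motif TGANTCA (6.75% of windows), the full TGACGTCA (1.55%), in which a TGACG match also lies, and the serum response element (1.47%) were searched on both strands too, and none of the 3 matched a member. Among the genes most like Cyr61 or Ctgf, Zfp36 held a serum response element match, and some Prss23 windows held an AP-1 match. These are letter matches and were not tested as binding sites.

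Depth varied widely between cells, from 7046 to 10727631 reads with a median of 148202.5, so shares of cells are given also after thinning each cell to 20000 reads, which left out the 88 shallower cells. LEC identity genes were present in most cells, with a median share of 97% over 8 genes. Of the markers of other cell types, Epcam and Krt18 were detected in 0 cells (3 cells would make 0.457%, and the exact upper limit is 0.561%), and the 6 haematopoietic genes ranged from 0.457% for Cd3e to 9.60% for Fcer1g. Fibroblast genes ranged from 1.68% for Col1a2 to 30.03% for Dcn. A read of an epithelial, haematopoietic, mural or fibroblast marker was found in 49.2% of cells. Of the blood endothelial list, reads were found of Emcn in 96.2% of cells, Plvap in 65.9%, Cd34 in 35.5%, Selp in 27%, Vwf in 10.4% and Flt1 in 2.44%, and its part in the results below was not tested. Levels below are means of the natural log of 1 plus reads per 10000, unless given per kilobase of exon, and an SD is the spread over cells.

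Among the channels, Piezo1 was read in the largest share of cells, whereas Trpv4 was highest per kilobase. Piezo1 (ENSMUSG00000014444.17, GRCm38 chromosome 8, 122481698 to 122551329, minus strand) was detected in 60.7% of cells (56.8 to 64.4%), and in 47.2% (43 to 51.4%) at 20000 reads. Its log level ran from 0 through a median of 0.15 to 3.49, with a mean of 0.44 ± 0.58 (SD). Cells with Piezo1 held a median of 13 reads of it, and 17 cells held a single read. These are reads after amplification, not molecules. The share of cells was 17.7% when a value above 1 was required. Ctu2, a gene on the opposite strand, shares 24.6% of the exonic bases of Piezo1 and was itself read in 25.6% of cells. Whether counting used strand is not given in the sources used here, so reads in that stretch cannot be assigned with certainty.

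Piezo2 (ENSMUSG00000041482.17, chromosome 18, 63010213 to 63387183, minus strand) was detected in 45.9% of cells (42 to 49.8%) and in 28.7% (25 to 32.6%) at 20000 reads. Its median was 0, its highest log level 2.7 and its mean 0.32 ± 0.53 (SD). Trpv4 (ENSMUSG00000014158.12, chromosome 5, 114622152 to 114658421, minus strand) was detected in 39.9% (36.2 to 43.8%) and in 24.6% (21.2 to 28.4%) at 20000 reads. Its log level also had a median of 0, with a highest value of 2.85 and a mean of 0.30 ± 0.58 (SD). Trpv4 was concentrated in few cells, and the tenth of cells with the most of it held 75.2% of its summed linear level, against 55.5% for Piezo1 and 63.4% for Piezo2. At equal depth the interval of Piezo1 lay above those of Piezo2 and Trpv4, which overlapped each other.

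The coactivator genes were both widely detected, Wwtr1 in more cells. Wwtr1 (ENSMUSG00000027803.14, chromosome 3, 57455649 to 57575910, minus strand) was detected in 76.8% of cells (73.4 to 80.01%) and in 62.9% (58.7 to 66.8%) at 20000 reads. Its log level ran from 0 through a median of 0.66 to 3.16, with a mean of 0.73 ± 0.69 (SD). Yap1 (ENSMUSG00000053110.13, chromosome 9, 7931999 to 8004596, minus strand) was detected in 58.2% (54.4 to 62%) and in 41.2% (37.1 to 45.4%) at 20000 reads, with a median of 0.15, a highest value of 2.73 and a mean of 0.39 ± 0.50 (SD). The intervals of the 2 genes did not overlap at either depth. Per kilobase the linear level of Wwtr1 was 4.57 times that of Yap1, and 2.65 times when the longest transcript set the length.

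The target genes ran from the highest to the lowest share of cells among the members. Cyr61 (Ccn1 in the annotation, ENSMUSG00000028195.4, chromosome 3, 145646976 to 145649981, minus strand) was detected in 91.8% of cells (89.4 to 93.8%) and in 70.4% (66.5 to 74.1%) at 20000 reads. Its log level varied widely between cells: the lower quartile of its log level was 0.22, the median 1.30, the upper quartile 2.61 and the highest value 5.16, with a mean of 1.56 ± 1.39 (SD). Ctgf (Ccn2 in the annotation, ENSMUSG00000019997.11, chromosome 10, 24595442 to 24598683, plus strand) was detected in 42.4% (38.6 to 46.3%) and in 27.3% (23.7 to 31.2%) at 20000 reads. Its median was 0, its highest log level 3.24 and its mean 0.30 ± 0.56 (SD), and in 56 cells it rested on 1 read. Gm15270, on the opposite strand, shares 23.2% of the exonic bases of Ctgf and was read in 3.51% of cells.

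Ankrd1 (ENSMUSG00000024803.9, chromosome 19, 36111961 to 36120099, minus strand) was detected in 27 cells, 4.12% (2.73 to 5.93%), and in 2.46% (1.35 to 4.1%) at 20000 reads. This share lay inside the range of the haematopoietic markers and was not read as expression in the population. Its highest log level was 2.72, and 10 cells held at least 10 reads.

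**Figure D1:**
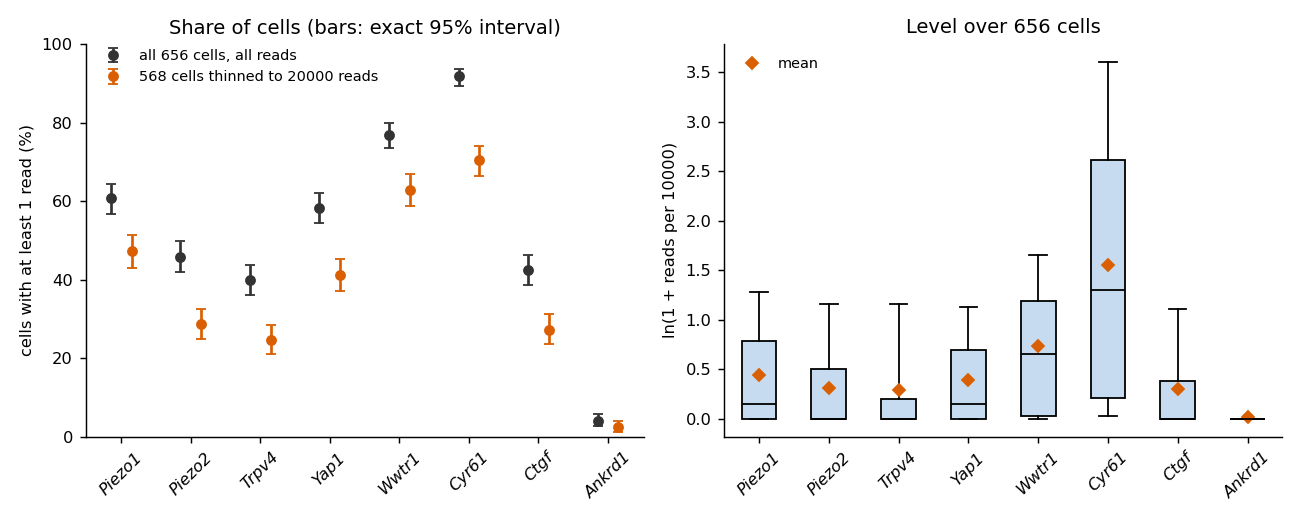
Left, share of cells with at least 1 read of each gene, in all cells and in cells thinned to 20000 reads, with exact 95% intervals. Right, natural log of 1 plus reads per 10000 over all cells, with boxes from the lower to the upper quartile, lines at the median, whiskers from the 10th to the 90th percentile and diamonds at the mean; Cyr61 had the highest share of cells and Ankrd1 the lowest.

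Full-length reads grow with transcript length, so levels were compared between genes only per kilobase of exon, on the linear scale of reads per 10000. Cyr61 led at 6.28 per kilobase, above 99.1% of the 9560 genes read in at least 10% of cells for which a length was known. Wwtr1 followed at 0.361, Ctgf at 0.251 and Trpv4 at 0.179. Piezo1 at 0.0950 and Yap1 at 0.0789 were near the median gene, 0.0771, while Piezo2 at 0.0383 and Ankrd1 at 0.0190 were below it. Cyr61 was 25 times Ctgf per kilobase, and Piezo1 was 2.48 times Piezo2. Trpv4, detected in fewer cells than Piezo1, was 1.88 times Piezo1 per kilobase, since its exons are shorter. Of this order, only Piezo1 and Yap1 changed places when length was taken from the longest transcript, at 0.115 and 0.138.

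Channels and coactivators were read singly and together. At 20000 reads, 27.3% of cells (23.7 to 31.2%) had no read of a channel, 48.6% had 1 channel, 20.4% had 2 and 3.70% (2.3 to 5.6%) had all 3. Both coactivator genes were read in 26.8% (23.2 to 30.6%) and neither in 22.7% (19.3 to 26.4%). With all reads, 14.8% of cells lacked a channel and 12.8% lacked both coactivators, so these shares moved with depth. Piezo2 was read in 26.9% of cells with Piezo1 (21.7 to 32.6%) and in 30.3% of cells without it (25.2 to 35.9%). Wwtr1 was read in 65% of cells with Yap1 (58.5 to 71.1%) and in 61.4% of cells without it (55.9 to 66.6%). In all 28 pairs of members the corresponding intervals overlapped, and Spearman rho over all cells ran from -0.066 to 0.12 with a median of 0.0074. In counts this sparse, such values show neither a link nor its absence.

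The study grouped LECs into capillary, precollecting and valve classes, so the members were compared across cell clusters. Clustering without the members and the listed genes among the variable genes gave 5 clusters. Cluster 1, with 32.3% of cells, carried all 5 Ptx3+ capillary markers and was called Ptx3+ capillary-like, with the interferon-induced gene Rsad2 among its leading genes. Cluster 5, with 11.4% of cells, had 4 of 6 upstream-valve markers raised and was called upstream-valve-like, although 3 of 6 downstream-valve markers (Cldn11, Angpt2 and Esam) were raised too, with the stress and cytokine genes Gdf15, Il6 and Cryab among its leading genes. The others had under 3 raised markers of a class, or markers chosen with earlier results of these cells known, and are called by leading genes: Ahsg/Apoe for cluster 2 (26.7%), Tppp3/Fndc1 for cluster 3 (15.9%) and Ptn/Pthlh for cluster 4 (13.7%). Median reads per cell ran from 84430.5 in cluster 4 to 186003 in cluster 2. These are descriptions, since the clusters were made from the same cells.

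Piezo2 had the highest ratio between clusters in the main clustering, while Ctgf passed it with 10 principal components (5.23 against 4.90 times), with no regression (5.44 against 5.21) and with the members kept among the variable genes (5.25 against 4.78). At 20000 reads it was detected in 58.6% of cells of the Tppp3/Fndc1 cluster (47.6 to 69.1%), 30.9% of the Ptx3+ capillary-like cluster (24.3 to 38.2%), 23.1% of the upstream-valve-like cluster (13.5 to 35.2%), 19.5% of the Ptn/Pthlh cluster (11.3 to 30.1%) and 16.5% of the Ahsg/Apoe cluster (11 to 23.2%). The interval of the Tppp3/Fndc1 cluster overlapped none of the other 4. Its mean log level there was 0.76 ± 0.66 (SD), against 0.15 ± 0.40 in the Ahsg/Apoe cluster. Piezo1 was ordered differently, with 60% in the upstream-valve-like cluster (47.1 to 72%) and 42.5% in the Ptx3+ capillary-like cluster (35.2 to 50.1%), and these intervals overlapped. Trpv4 was highest in the Ptn/Pthlh cluster at 40.3% (29.2 to 52.1%) and lowest in the Tppp3/Fndc1 cluster at 18.4% (10.9 to 28.1%), intervals that did not overlap. The Ptn/Pthlh interval overlapped those of the Ptx3+ capillary-like (16.8 to 29.4%), Ahsg/Apoe (16.5 to 30.1%) and upstream-valve-like (14.8 to 36.9%) clusters. The 3 channels had their highest shares in 3 different clusters, but only for Piezo2 was the highest interval apart from all the others.

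Ctgf was highest in the Ptx3+ capillary-like cluster and lowest in the upstream-valve-like cluster. It was detected at 20000 reads in 39.2% (32.1 to 46.7%), 27.8% (21 to 35.5%), 24.1% (15.6 to 34.5%), 15.6% (8.32 to 25.6%) and 10.8% (4.44 to 20.9%) of cells in clusters 1 to 5. The interval of the Ptx3+ capillary-like cluster lay above those of the Ptn/Pthlh and upstream-valve-like clusters. Cyr61 was more even, from 61.5% (48.6 to 73.3%) in the upstream-valve-like cluster to 78.2% (68 to 86.3%) in the Tppp3/Fndc1 cluster. Yap1 ranged from 33.8% (23.4 to 45.4%) to 49.4% (41.3 to 57.4%) and Wwtr1 from 55.1% (47 to 63%) to 70.1% (59.4 to 79.5%), and within each of these 3 genes all intervals overlapped. A score of immediate-early genes, which Cyr61 followed (below), had been regressed out before clustering. Its part in the evenness of Cyr61 was not tested. Ankrd1 was read in 2 to 4 thinned cells of each cluster.

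The linear cluster means were also compared, and for some genes their extremes lay in other clusters than those of the shares. With 0.1 per 10000 added, the highest cluster mean was at least 2 times the lowest for 3 of 8 members, Piezo2 (4.50 times), Ctgf (3.69 times) and Ankrd1 (2.71 times, on few cells). Among all 9666 genes detected in at least 10% of cells, 21.8% reached that ratio, and of the 7 members in that set 2 did. The ratios of Piezo2 and Ctgf were higher than those of 98.2% and 97% of these genes. Trpv4 (1.89 times), Piezo1 (1.78 times), Cyr61 (1.67 times), Wwtr1 (1.5 times) and Yap1 (1.44 times) stayed below it, and the median gene had 1.60 times. These calls depended on the clustering. The count was 7 at resolution 1.2, which gave 8 clusters. There Trpv4 reached 5.02, Cyr61 2.36, Piezo1 2.24 and Wwtr1 2.04. The count was 6 with no regression, which gave 6 clusters, where Cyr61 reached 2.42, Piezo1 2.27 and Yap1 2.17. It was 5 with the members and lists kept among the variable genes (5 clusters), where Trpv4 reached 3.44 and Wwtr1 2.04. The share of all genes is given for the main clustering only, so these 3 counts have no background beside them.

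**Figure D2:**
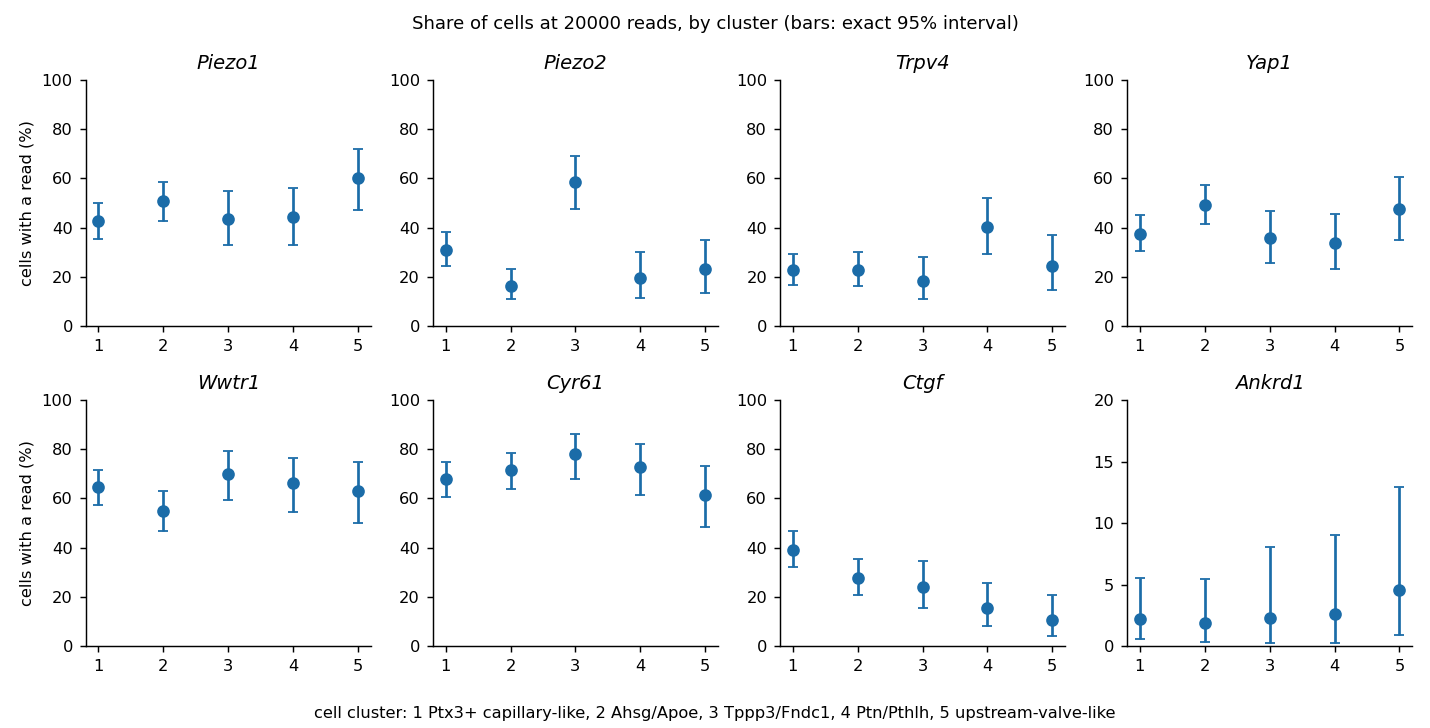
Share of cells with at least 1 read after thinning to 20000 reads (vertical axis, percent; 0 to 20 for Ankrd1 and 0 to 100 for the others) in cell clusters 1 to 5, with exact 95% intervals. Piezo2 stands at 58.6% in cluster 3 and at 30.9% or less elsewhere, and Ctgf at 39.2% in cluster 1 and 10.8% in cluster 5.

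For each member read in at least 10% of cells, the 5 genes with the highest rank correlation over all cells were taken, with the number of detected genes regressed out. These cells share 1 pool, its handling and its sequencing, and the values describe that pool. Cyr61 was most like Fos (rho 0.48), Jun (0.44), Egr1 (0.40) and Atf3 (0.40), which encode immediate-early transcription factors, and Zfp36 (0.37), which encodes an mRNA-destabilising protein. Against the mean of 16 immediate-early genes, Cyr61 had a rho of 0.44, and 0.47 after thinning. With the cells ordered by that score and cut into 3 equal groups, the mean Cyr61 log level was 0.67 ± 0.78 (SD) in the lowest group, 1.89 ± 1.30 in the middle group and 2.12 ± 1.51 in the highest. Its share at 20000 reads was 52.5% (45.4 to 59.5%), 78.3% (71.4 to 84.2%) and 82.5% (76.4 to 87.7%) in the same order, so the lowest group stood apart from the others. Within single clusters the rho lay between 0.39 and 0.51. A score of these genes had been regressed out before clustering, and Cyr61 and these genes left out. The clusters were thus made not to separate cells by that score, and the range within them decides nothing further. All 16 immediate-early genes had a rho above 0 with Cyr61, as had 54.9% of all genes. Of the 16, 13 had at least 0.2, a value that 0.466% of all genes reached. How far dissociation of the tissue moved Cyr61 was not tested.

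Against the same score Ctgf had a rho of -0.054 and a share at 20000 reads of 26.5% (20.6 to 33.1%), 32% (25.2 to 39.5%) and 23.8% (17.9 to 30.5%) from the lowest to the highest group. The rho between Cyr61 and Ctgf was 0.12. The genes most like Ctgf were Crim1 (0.29), a transmembrane regulator of BMP signalling, Robo4 (0.25), an endothelial guidance receptor, Prss23 (0.24), a secreted serine protease, and Thbs1 (0.24), a matricellular protein. With the cells grouped in the same way by Crim1, Ctgf was read at 20000 reads in 13% of the lowest group (8.49 to 18.7%), 25% of the middle group (19.2 to 31.6%) and 44.3% of the highest (36.9 to 51.8%). Within clusters the rho of Ctgf and Crim1 lay between 0.17 and 0.35.

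Piezo2 was most like Lyve1 (rho 0.44), the hyaluronan receptor of lymphatic capillaries, and Reln (0.37), a secreted glycoprotein of LECs. Syne1 (0.33), a nuclear envelope protein, Cyp4b1 (0.32), a cytochrome P450, and Enpp3 (0.32), an ectonucleotidase, came next. Piezo2 was read at 20000 reads in 13.4% (9.09 to 18.8%) of the group lowest in Lyve1, in 21.6% (15.8 to 28.4%) of the middle group and in 53% (45.5 to 60.4%) of the highest. With cluster means removed from the ranks the rho with Lyve1 was 0.31. Within single clusters it lay between 0.12 and 0.34. Piezo1, Trpv4, Yap1 and Wwtr1 had no close partner. Their best values, 0.16, 0.15, 0.15 and 0.16, were all below 0.17, the median of the best value over 9666 genes.

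**Figure D3:**
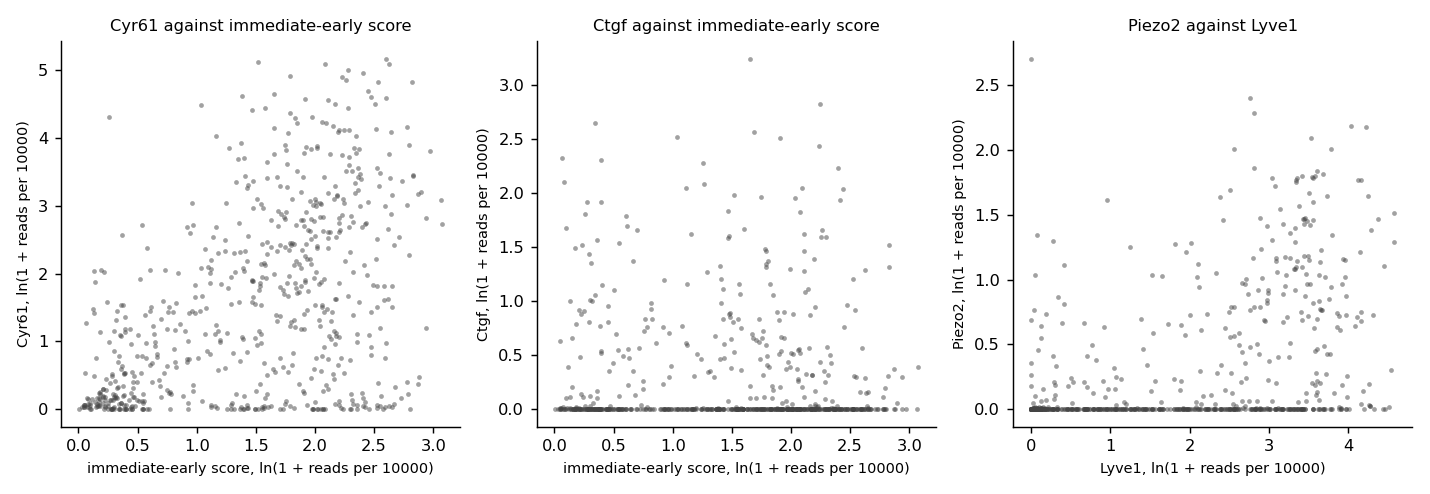
Each point is 1 cell, with both axes in natural log of 1 plus reads per 10000 and the immediate-early score being the mean of 16 genes. Cyr61 was higher in cells with a high score (rho 0.44), Ctgf was not (rho -0.054), and Piezo2 was higher in cells with much Lyve1.

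The rest of the Hippo and YAP/TAZ machinery was read from named lists. Of 16 upstream Hippo genes, 15 were detected in at least 10% of cells. Over all 16, shares ran from 92.5% for Ptpn14, a phosphatase that restrains YAP, to 0.457% for Wwc1, the scaffold also called KIBRA. Lats2 was read in 52% of cells (48.1 to 55.9%) and Lats1 in 25.3% (22 to 28.8%). Of the 15 genes that passed this minimum, 0 had a cluster ratio of at least 2, against 21.8% of all genes. Their median ratio was 1.45 against 1.60. Among the TEAD factors, Tead1 was read in 48.9% (45 to 52.8%), Tead4 in 27%, Tead2 in 26.8% and Tead3 in 3.66%. Tead2 alone of the 3 that passed the detection minimum reached a ratio of 2 (2.93), with its highest mean in the upstream-valve-like cluster.

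The list of YAP/TAZ target genes shared Amotl2, Lats2 and Ptpn14 with the upstream Hippo list, so counts from these lists are not separate. Of 22 YAP/TAZ target genes listed, Cyr61, Ctgf and Ankrd1 included, 21 were in the table and 13 passed the same detection minimum. Of these 13, 8 had a cluster ratio of at least 2, against 21.8% of all genes, and their median ratio was 2.07. Their highest clusters differed: Ctgf, Ajuba, Crim1 and Asap1 were highest in the Ptx3+ capillary-like cluster, Rbms3 and Igfbp3 in the Tppp3/Fndc1 cluster, and Tgfb2 and Gadd45b in the upstream-valve-like cluster. Of 11 targets, 2 had a rho of at least 0.1 with Cyr61, against 3.76% of all genes. With Ctgf 3 of 11 did, against 2.64% of all genes. Most targets stayed below that value with both genes. Gadd45b (0.23), a stress-response gene, and Amotl2 (0.23), which encodes a YAP-binding angiomotin, had the highest rho with Cyr61. Crim1 (0.29), Tgfb2 (0.16), a TGF-beta ligand, and Amotl2 (0.12) had the highest with Ctgf. With the immediate-early score, Gadd45b had a rho of 0.47 and Amotl2 of 0.25, each higher than its rho with Cyr61. Over 11 targets that were neither Cyr61 nor Ctgf the median rho was 0.020 with Cyr61 and 0.047 with Ctgf. Over all genes that passed the detection minimum it was 0.0057 and 0.0020.

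**Figure D4:**
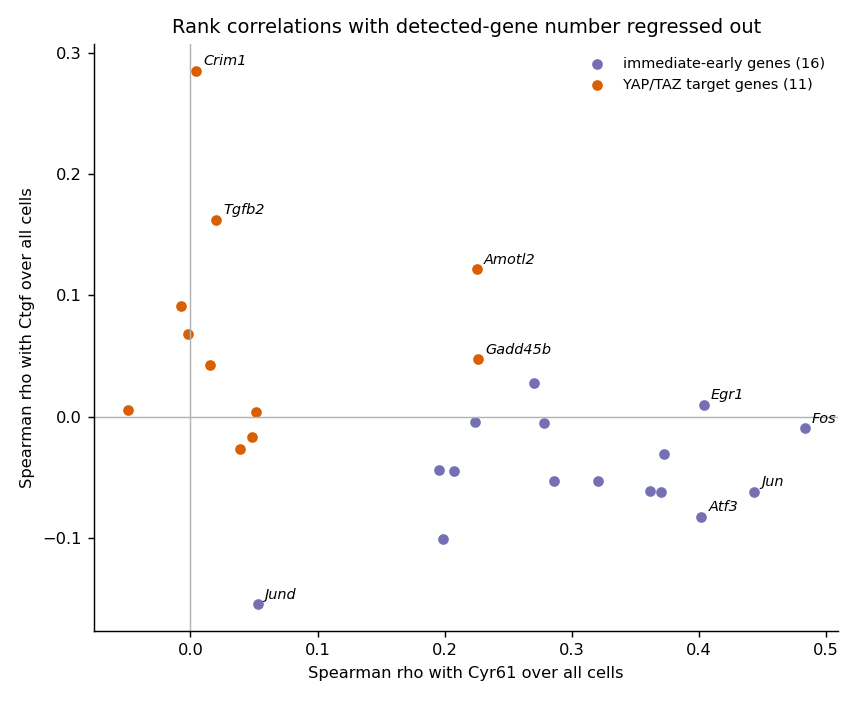
Spearman rho with Cyr61 (horizontal axis) against rho with Ctgf (vertical axis) over all cells, with the number of detected genes regressed out, for 16 immediate-early genes and 11 YAP/TAZ target genes. Immediate-early genes lie to the right, up to 0.48 for Fos, near or below 0 on the Ctgf axis, while Crim1 lies at 0.29 on the Ctgf axis and near 0 on the Cyr61 axis.

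Other force-responsive genes gave the setting of the channels. Of 15 further mechanically linked channel and channel-regulator genes in the table, 10 passed the detection minimum. Tmem63a, which encodes an osmosensitive channel, was read in 70.9% of cells (67.2 to 74.3%), more widely than Piezo1, and Kcnk4, which encodes a stretch-activated potassium channel, in 0 cells. Of the 10, 3 had a cluster ratio of at least 2, which is near the 21.8% of all genes. The junctional and receptor flow sensors were mostly widespread, with Pecam1 in 99.2%, Kdr in 98.8% and Cdh5 in 96.8%. Among flow-responsive transcription factor genes, Klf4 was read in 97.1% and Klf2 in 82.3% (79.2 to 85.2%), and their rho with Cyr61 was 0.37 and 0.25. Their rho with the immediate-early score was higher, 0.73 and 0.60, and the other 6 listed factors had a rho of at most 0.084 with Cyr61. Foxc2, a valve regulator, was read in 15.9% (13.1 to 18.9%).

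The labels number the cells, and the sorted cells had been placed in plates of 96 wells, so shares were compared across cell numbers. At 20000 reads, Ctgf was read in 22.3% of cells in blocks 1 to 6 of 96 numbers (18.1 to 27%) and in 35.7% of cells in blocks 7 to 12 (29.2 to 42.6%). Its intervals were apart, as were those of 1.28% of 7752 genes, and the intervals of the other 7 members overlapped. At 50000 reads per cell the intervals of all 8 members overlapped, Ctgf included. By single blocks, Ctgf ran from 19.1% to 22.2% in blocks 1 to 5 and from 30% to 37.8% in blocks 6 to 12, a boundary chosen after the blocks were seen. The clusters were not evenly spread: the Ptx3+ capillary-like cluster made up 28.3% of the lower-numbered cells and 39.3% of the higher-numbered ones, and the Tppp3/Fndc1 cluster 19.7% and 9.21%. Inside the Ptx3+ capillary-like cluster Ctgf was read in 37% (27.6 to 47.2%) and 42% (31.1 to 53.5%), and inside the Ahsg/Apoe cluster in 17.2% (10.3 to 26.1%) and 45.8% (32.7 to 59.2%). The other clusters held fewer cells, and their intervals overlapped, with 20.9% and 35% in the Tppp3/Fndc1 cluster, 13.2% and 20.8% in the Ptn/Pthlh cluster, and the opposite order, 12.8% and 7.69%, in the upstream-valve-like cluster. No label ties a number to a plate, day or animal, and what the numbers stand for was not tested.

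**Figure D5:**
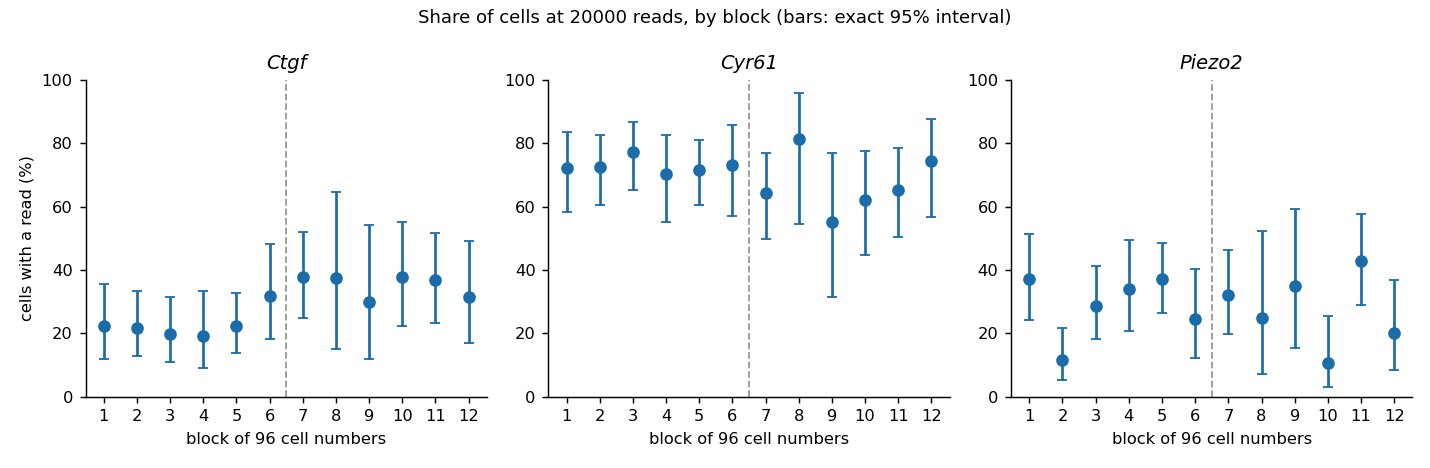
Share of cells with at least 1 read at 20000 reads (vertical axis, percent) in 12 consecutive blocks of 96 cell numbers (horizontal axis), with exact 95% intervals and a dashed line between blocks 6 and 7. Ctgf lies at or below 22.2% in blocks 1 to 5 and at or above 30% in blocks 6 to 12, whereas Cyr61 and Piezo2 show no such step.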

How the data were processed

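Smart-seq3 libraries of sorted single LECs were aligned to mm10 with STAR and counted with featureCounts (Subread) by the authors, per the labels and the methods, and processed with Seurat 4.1.0. The deposited values behaved as the natural log of 1 plus reads per 10000, although a log2 scale is described: the exponentials minus 1 summed to 10000 in every cell. The smallest value above 0 was taken as 1 read, and 100% of values were then whole reads within 0.01. Reads, not molecules, were counted. Of the 1152 labelled cells, 656 were analysed and 496 were not analysed here. The authors discarded cells with fewer than 2000 genes or a high share of mitochondrial reads. The cells analysed had at least 2006 genes and at most 9.13% mitochondrial reads, so every share describes cells within that filter. Clusters 1 to 5 held 212, 175, 104, 90 and 75 cells, and thinning kept 568.

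Cells were thinned without replacement. Intervals were exact (scipy 1.17.1). Recovered reads were clustered in Seurat 5.3.0 (R 4.3.3) on 2000 variable genes less 32 listed genes, 15 principal components and resolution 0.7. Depth and mitochondrial, ribosomal and dissociation scores were regressed, the last built from the immediate-early genes. A marker counted as raised at 1.5 times the mean of other cells. Gene lengths and positions came from GENCODE M21 (GRCm38), where Cyr61 and Ctgf appear under newer symbols, and promoters from RefSeq (GRCm38.p6). Genes named were the members, the 5 most correlated genes of each, and list genes, mainly the highest and lowest by share of cells; some items are not reported here. Other list genes were named after their values were seen, as were the cells grouped by score and the within-cluster values. The scripts were tested on simulated data. The members and lists were chosen with earlier results of these data known. Doublets were not called, as wells received single sorted cells.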

Additional observations from a re-analysis of the deposited data

How the results depend on the processing

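The median share of cells over the 8 members, 52.1%, was 14.3% when a value above 1 was required, 34.9% at 20000 reads, 45.4% at 50000 reads and 56.5% in cells with at least 3000 genes. It stayed within its spread with at least 2 reads and in cells without reads of other cell types. The median mean level, 0.35, was 0.55 as the log of the linear mean and 0.25 when values were read as log2, and both changes follow from the scale. The number of members with a cluster ratio of at least 2, 3 in the main clustering, was 7 at resolution 1.2 (8 clusters). It was 6 with no regression (6 clusters) and 5 with members and lists kept among the variable genes. For these the cause was not tested and no share of all genes is given. The number was 3 or 4 under the other 4 settings. Piezo2 and Ctgf reached that ratio in each of the 7 settings, at 4.14 to 16.6 and 3.49 to 13.6. The number of members whose intervals were apart between cell numbers, 1, was 0 at 50000 reads and 0 in the Ptx3+ capillary-like cluster only, an alternative chosen after seeing the data. The first uses fewer cells by construction, and in the second the difference itself was smaller (37% and 42%, against 22.3% and 35.7% over all cells); the cause was not tested. The rho of Cyr61 with the immediate-early score (0.44 to 0.47) and with Ctgf (0.088 to 0.16) kept its sign under every alternative run. For the immediate-early score, removing cluster means could change little, since such a score was regressed out before clustering. No paired analysis was possible because the cells carry no replicate number and there was no second group. Depth limits every share, and without animals no value here carries an error between mice.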
